A study of Mus musculus with 6 samples.

Results

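The 4 regions described here are recently duplicated multicopy gene clusters of the mouse genome, in which related genes lie side by side in many near-identical copies. They span 2.5 Mb of chromosome 4 (143000001 to 145500000), 3 Mb of chromosome 5 (94000001 to 97000000), 7 Mb of chromosome 12 (18000001 to 25000000) and 3.1 Mb of chromosome 14 (4900001 to 8000000), all in NCBIM37. Their members are the 2 kb tiles of the deposited ChIP-seq values inside these bounds, which are 1250, 1500, 3500 and 1550 tiles in that order, or 7800 of the 1327469 tiles of the genome. The clusters were chosen by the share of tiles without reads in these libraries, so that share is given as a description and not as a finding. The 1 Mb on either side of each cluster (4000 tiles in all) served as flanks.

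H3K9me2, H3K27me3 and H3K9me3 were profiled by ChIP-seq in mouse embryonic stem cells (ESCs), once for each mark in each of 2 genotypes. Both genotypes lack Dicer, the endonuclease that produces small interfering RNAs and microRNAs. The Dicer KO libraries come from cells labelled Dicer -/-, and the Dicer KO/Dnmt1 cKO libraries from cells labelled Dicer/Dnmt1 -/-, in which Dnmt1 was removed as well. Per the methods, the Dicer KO line was made from a floxed Dnmt1 line that carries an inducible Cre. Dicer was disrupted in it by CRISPR/Cas9 and single-cell colonies were picked, so that each line is a clone. The methods list the Dicer KO cells themselves as Dnmt1 loxP/loxP, so the floxed background is not that of the double mutant alone. Whether both genotypes came from the same clone is not stated. Deletion is induced with tamoxifen (800 nM) in serum and LIF, and the time after induction is not given in the sources used here for these libraries. The labels give the strain as E14, whereas the methods describe C57BL/6 ESCs.

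Dnmt1 copies DNA methylation onto the new strand at replication and keeps most CpG methylation in place through cell division. H3K9me3 and H3K9me2 mark silent chromatin, H3K9me3 mostly at repeats and zinc finger genes, and H3K27me3 is laid down by the Polycomb group at silent developmental genes and CpG-rich starts. The PRAME genes of chromosomes 4 and 5 encode leucine-rich repeat proteins of germ cells and oocytes, Oog3 among them, and such young gene families are typically methylated and silent outside the germline.

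How alike the copies are can be seen in the sequence itself. The following 100-base stretches (NCBIM37, plus strand) are shown because every 50-base word in them recurs in the same cluster and nowhere else in the reference, and because each lies in a tile without reads. They are in lower case throughout, since no part of them differs between the exact copies counted below.
chr4:143102591-143102690: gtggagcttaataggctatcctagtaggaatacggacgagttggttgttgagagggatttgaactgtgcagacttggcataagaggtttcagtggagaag
chr5:95535651-95535750: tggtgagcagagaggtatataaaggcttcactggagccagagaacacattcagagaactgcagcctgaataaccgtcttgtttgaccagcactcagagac
chr12:24122371-24122470: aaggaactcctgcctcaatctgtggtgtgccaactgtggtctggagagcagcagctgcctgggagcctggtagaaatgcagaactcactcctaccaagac
chr14:5412541-5412640: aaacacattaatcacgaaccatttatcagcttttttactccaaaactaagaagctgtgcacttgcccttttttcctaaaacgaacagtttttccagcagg
The chromosome 4 stretch lies in an intron of 3 overlapping PRAME genes, Gm13040, Gm13043 and Gm13057, and has 5 exact copies in the cluster. The chromosome 5 stretch is intergenic, with its middle 256 bases before the start of the PRAME-type gene Gm7942, and has 11 exact copies. The chromosome 12 stretch is intergenic, its words occur at least 23 times each, and the whole stretch is repeated exactly 15 times, so that other copies of its words lie in stretches that differ. The chromosome 14 stretch lies in an intron of Gm3383 and has 8 exact copies. Of these copies, 2, 3, 2 and 3 fell in tiles without a read in any library, and the others in tiles with reads.

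The other sequences shown are those in which near-copies could be told apart, and their capitals mark the bases that differ between the 2 copies. They are a stretch of the tile with most H3K9me3 reads in the chromosome 5 cluster, a stretch of the tile with most H3K27me3 reads in the chromosome 14 cluster, and the closest copy of each that aligns without a gap.
chr5:95152541-95152640: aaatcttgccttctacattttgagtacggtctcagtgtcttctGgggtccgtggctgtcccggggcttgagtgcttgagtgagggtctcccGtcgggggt
chr5:95160834-95160933: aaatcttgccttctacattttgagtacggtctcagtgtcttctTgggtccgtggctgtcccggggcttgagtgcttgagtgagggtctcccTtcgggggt
chr14:6012411-6012510: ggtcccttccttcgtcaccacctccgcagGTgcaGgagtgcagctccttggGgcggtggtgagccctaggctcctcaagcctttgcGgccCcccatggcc
chr14:6093772-6093871: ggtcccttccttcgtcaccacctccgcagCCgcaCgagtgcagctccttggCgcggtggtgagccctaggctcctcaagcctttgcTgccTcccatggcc
All 4 are on the plus strand of NCBIM37. The chromosome 5 copies are intergenic and differ at 2 bases (98% identity). The chromosome 14 copies differ at 6 bases (94% identity). The first lies in an intron of Gm8237, and the middle of the second lies 54 bases upstream of the start of Gm3248. The reads of their tiles are given with the gene starts further on.

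The deposited values are log2 ratios of observed to expected reads, from which whole reads were recovered. There was 1 library for each mark and genotype. The libraries held between 16834940 and 27162045 reads, and their median tile held 13 to 18. Without replicates no test was made, a difference between the genotypes cannot be told apart from one between 2 libraries, and every interval below is a 95% interval for counting error only, in which PCR copies count as independent reads. As a check of the cell type, 8 developmental genes such as Hoxa9 and Sox17 had a median H3K27me3 level of 3.76 in Dicer KO and 3.27 in Dicer KO/Dnmt1 cKO, against 0.381 and 0.454 over 7 pluripotency genes such as Pou5f1 and Nanog. H3K27me3 was lower in Dicer KO/Dnmt1 cKO in all 8 developmental genes, with log2 changes from −0.63 to −0.14 (median −0.39) and the counting interval below 0 in 5. Levels here and below are reads per tile relative to the genome-wide mean of the library, so that 1 is an average tile. The deletion within Dnmt1 was not resolved at this depth, with 8 reads over the 3 marks in Dicer KO and 2 in Dicer KO/Dnmt1 cKO in the Dnmt1 tile chr9:20744001-20746000.

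In the reference sequence the 4 clusters differed in how much of them is found only once. The share of 50-base words that occur a single time in the genome was 66.8% in the chromosome 4 cluster, 30.3% in that of chromosome 5, 29.7% in that of chromosome 12 and 7.90% in that of chromosome 14, against 88.4% over every 250th tile of the genome. Words with a copy inside the same cluster made up 17.2%, 66.0%, 67.1% and 87.4%. The copies were local, with a median distance to the nearest of 160 kb, 317 kb, 433 kb and 194 kb. The chromosome 14 cluster was thus almost wholly built of repeated sequence and the chromosome 4 cluster mostly of sequence found once.

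Tiles without reads followed that order. In the chromosome 14 cluster 801 of 1550 tiles (51.7%, Wilson interval 49.2 to 54.2) held no read in any of the 6 libraries. The chromosome 12 cluster had 678 such tiles (19.4%, 18.1 to 20.7), the chromosome 5 cluster 287 (19.1%, 17.2 to 21.2) and the chromosome 4 cluster 57 (4.56%, 3.54 to 5.86). The whole genome had 5.23%, so only the chromosome 4 cluster was near it. Neighbouring tiles are not independent, and these intervals are therefore too narrow.

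The share without reads was alike in the 6 libraries. In single libraries it ran from 57.2% to 62.6% in the chromosome 14 cluster, from 28.2% to 35.3% in that of chromosome 12, from 27.9% to 34.2% in that of chromosome 5 and from 6.72% to 8.96% in that of chromosome 4. Over the genome it ran from 6.10% to 6.89%. In the chromosome 14 cluster H3K27me3 showed 57.2% in Dicer KO and 59.4% in Dicer KO/Dnmt1 cKO, H3K9me3 showed 61.3% and 61.2%, and H3K9me2 showed 62.6% and 61.9%. Neither genotype stood apart, and the H3K27me3 Dicer KO library, which was the deepest, had the fewest such tiles there.

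Within a cluster, a tile without reads was a tile of repeated sequence or of assembly gap. Of the 2886 cluster tiles with less than 10% words found once, 1517 (52.6%) held no reads, and of the 305 tiles that are mostly gap, 303 held none. Of the 2595 tiles with 10 to 50% such words 3 held none, all on chromosome 12, and there was no tile without reads among the 1044 tiles with 50 to 90% and the 970 with at least 90%. Tiles with less than 10% were without reads at 65.1% in the chromosome 14 cluster, 54.8% in that of chromosome 12, 40.6% in that of chromosome 4 and 34.6% in that of chromosome 5. Over the genome the same kind of tile was without reads at 46.0%, so the clusters lay on both sides of it. The discarding of reads with a mapping quality under 20, which the methods state, removes reads that fit several places equally well, and its part in these shares was not tested.

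**Figure D1:**
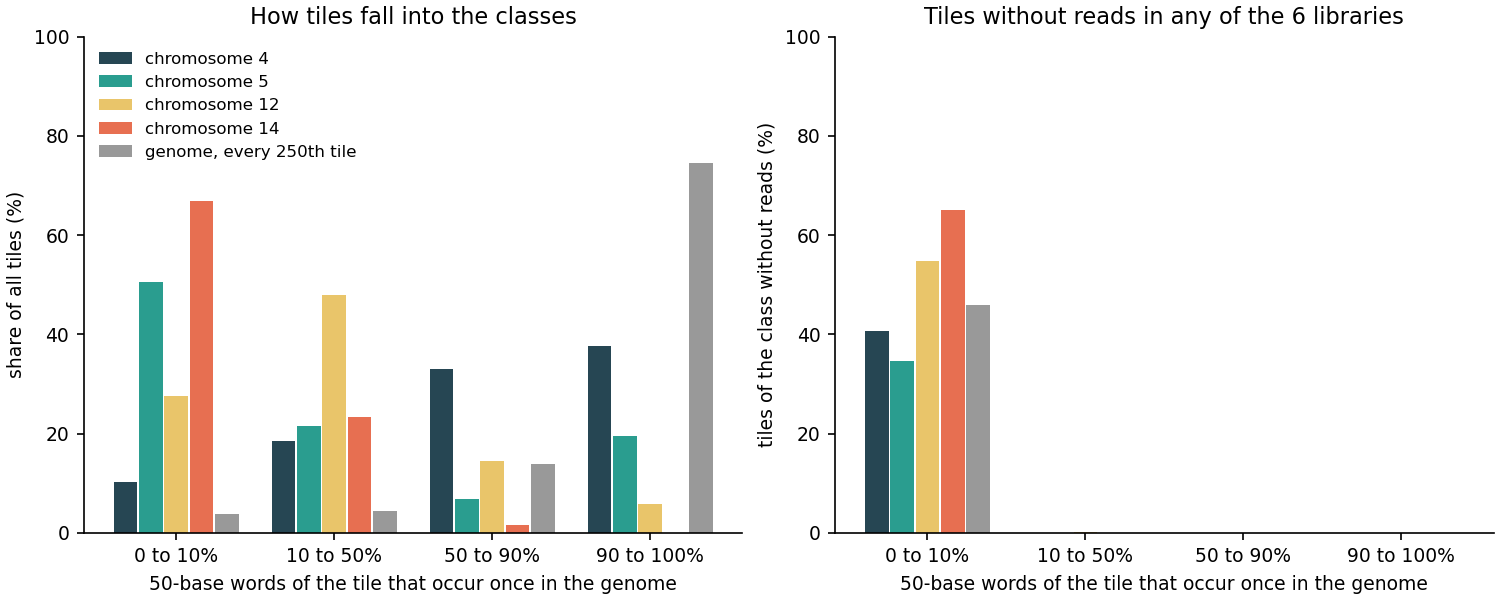
Share of the 2 kb tiles of each set that fall into a class (left panel, percent) and share of the tiles of that class without a read in all 6 libraries (right panel, percent), by the share of a tile's 50-base words that occur once in NCBIM37 (horizontal axis), with 1 bar for each of the 4 clusters and 1 for every 250th tile of the genome. In the right panel tiles with less than 10% once-only words range from 34.6% to 65.1% in the clusters, and tiles with more than 50% stand at 0.

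Long runs without reads lay inside the clusters. The longest was on chromosome 14 from 5488001 to 5944000, 228 tiles or 456 kb, of which 50 tiles are gap. On chromosome 12 it ran from 22250001 to 22504000 (127 tiles, 254 kb, 25 of the tiles gap), on chromosome 5 from 94518001 to 94578000 (30 tiles, 25 of them gap) and on chromosome 4 from 143102001 to 143124000 (11 tiles, 22 kb). The chromosome 4 and chromosome 12 runs hold less than 1% of words found once (0.459% and 0.111%). Counted in 100 kb windows, at least 50% of tiles were without reads in 16 of 31 windows of the chromosome 14 cluster, 12 of 70 on chromosome 12, 5 of 30 on chromosome 5 and 1 of 25 on chromosome 4, against 4.35% of windows over the genome.

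**Figure D2:**
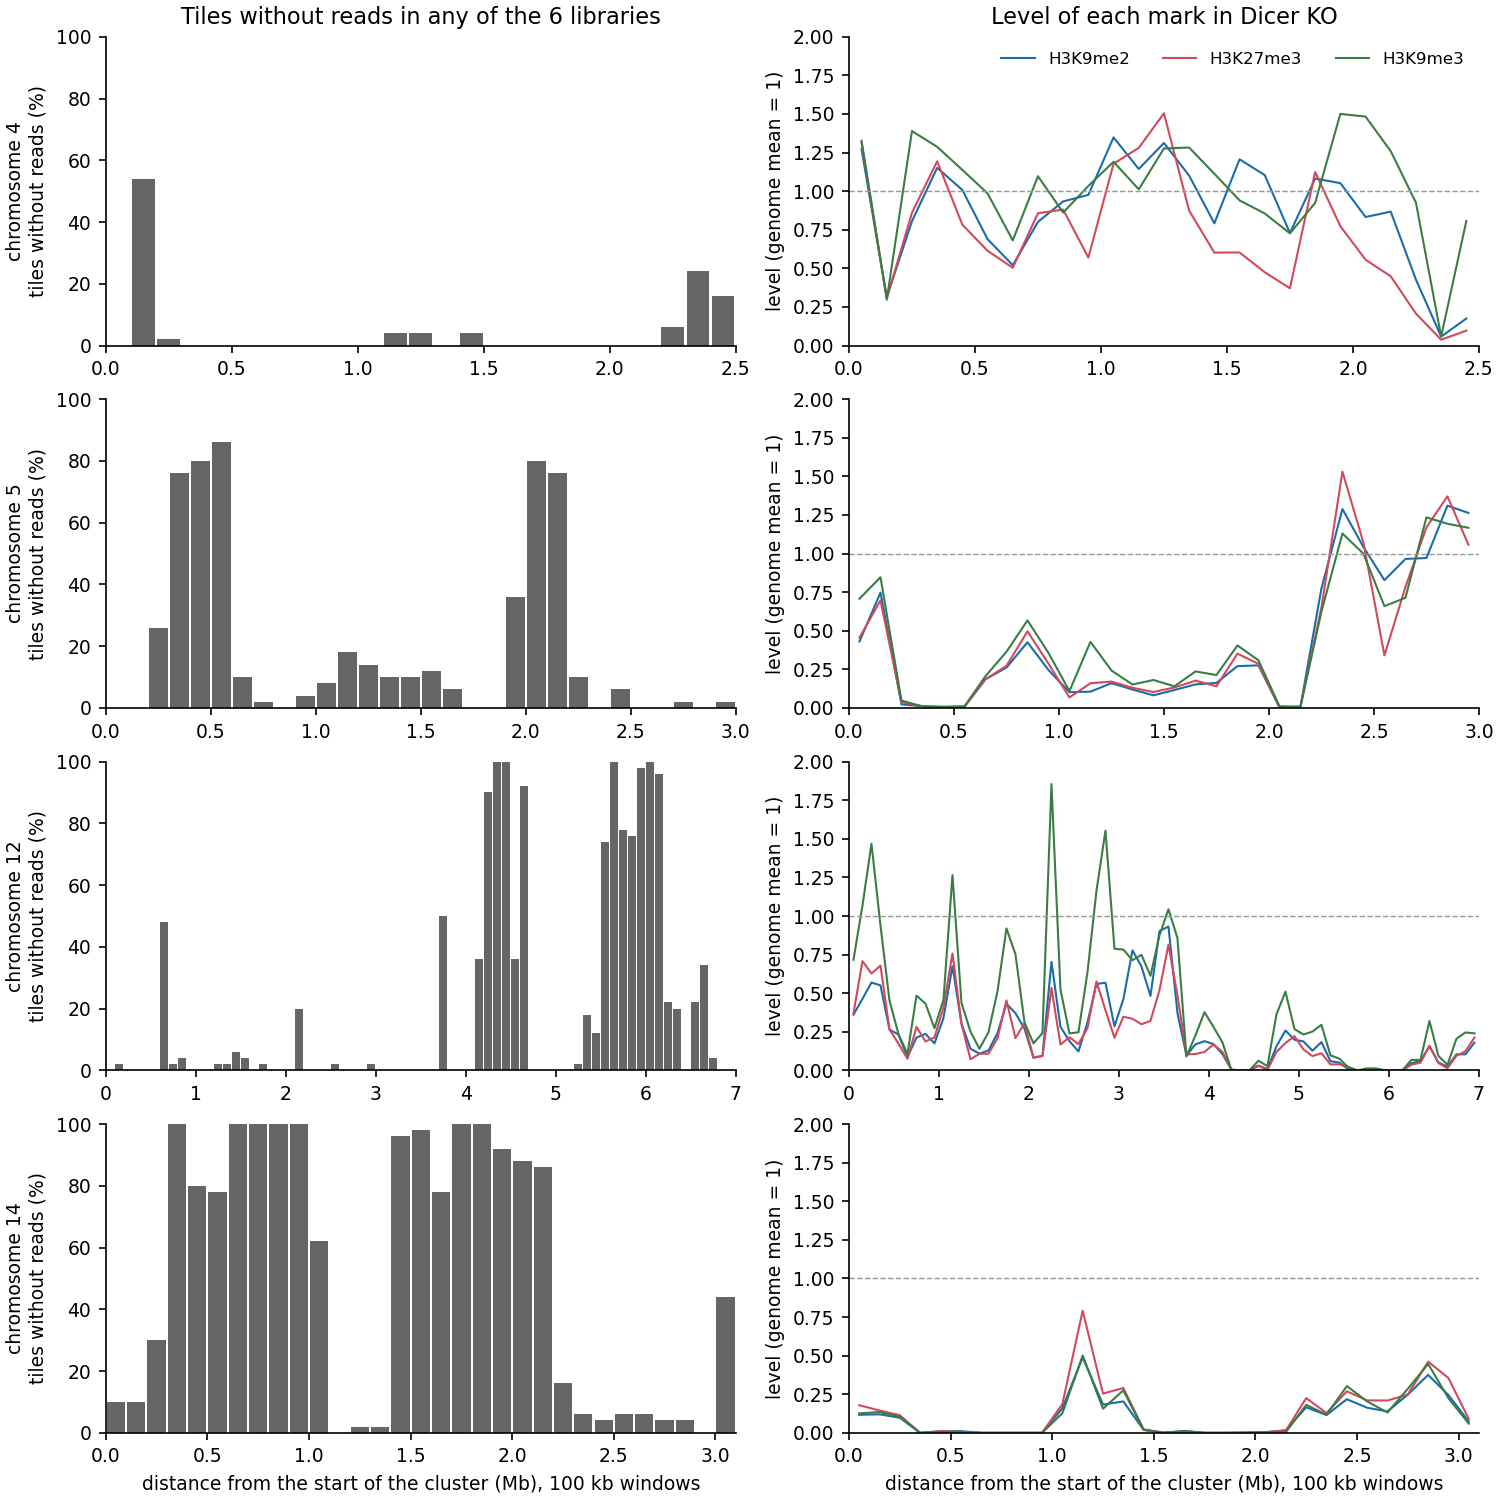
Share of tiles without reads in all 6 libraries (left panels, grey bars, percent) and level of each mark in Dicer KO (right panels, lines, reads per tile relative to the library's genome mean, dashed line at 1) in 100 kb windows along the 4 clusters, with distance from the cluster's start in Mb on the horizontal axes. The chromosome 14 cluster stays below 0.8 for all 3 marks, and the highest H3K9me3 window of the chromosome 12 cluster reaches 1.85.

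Some of the flanks were repeated sequence themselves. The flanks of the chromosome 5 cluster (2.8% of tiles without reads on the left, 0.4% on the right) and of the chromosome 12 cluster (0.2% and 0.4%) are mostly sequence found once. The right flank of the chromosome 4 cluster is rich in zinc finger genes (6 of its 7 protein-coding genes), with 14.8% of words found once and 50.4% of tiles without reads, against 5.2% on the left. The flanks of the chromosome 14 cluster hold 23 further predicted genes on the left and 12 on the right, and words found once made up 11.1% on the left and 48.4% on the right, with 8.6% and 7.6% of tiles without reads. The comparisons with flanks below are therefore with far less repeated sequence on chromosomes 5 and 12 and with partly repeated sequence on chromosomes 4 and 14.

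The levels of all 3 marks were near the genome mean in the chromosome 4 cluster and low in the other 3. On chromosome 4 the H3K9me2 level was 0.868 in Dicer KO and 0.857 in Dicer KO/Dnmt1 cKO, the H3K27me3 level 0.721 and 0.713, and the H3K9me3 level 1.02 and 0.960. On chromosome 5 H3K9me3 stood at 0.443 and 0.432, H3K9me2 at 0.412 and 0.398 and H3K27me3 at 0.406 and 0.403. On chromosome 12 H3K9me3 stood at 0.417 and 0.393, above H3K9me2 at 0.239 and 0.242 and H3K27me3 at 0.210 and 0.213. The chromosome 14 cluster was lowest, with H3K27me3 at 0.136 and 0.118, H3K9me3 at 0.110 and 0.101 and H3K9me2 at 0.103 and 0.0996.

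Against the flanks in Dicer KO, the chromosome 14 cluster had 0.362 times the H3K9me2 level, 0.456 times the H3K27me3 level and 0.345 times the H3K9me3 level. The ratios were 0.414, 0.458 and 0.465 on chromosome 5 and 0.268, 0.229 and 0.454 on chromosome 12. On chromosome 4 they were 1.21, 0.825 and 1.30, but there the right flank alone lowered the flank mean, and against the left flank the same ratios were 0.753, 0.455 and 0.916. Reads are counted only where they can be placed, so these ratios are not amounts of a mark per nucleosome.

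Counted per 50-base word found once, an alternative chosen after seeing the data, the clusters were no longer low throughout. The level per such word, relative to tiles with at least 90% of them, came to 1.40 for H3K9me3 in the chromosome 5 cluster of Dicer KO, beside 1.20 for H3K9me2 and 1.15 for H3K27me3. For the same marks in that order it came to 1.43, 1.22 and 1.58 in the chromosome 14 cluster, 1.38, 0.726 and 0.624 in that of chromosome 12, and 1.44, 1.13 and 0.915 in that of chromosome 4. H3K9me3 stood at 1.38 to 1.44 in the 4 clusters by this measure, beside 1.14 over every 250th tile of the genome. It stood at 1.43 in the flanks of chromosome 4 (3.54 in the right one alone) and at 0.993 to 1.01 in the flanks of the others. The left flank of chromosome 14, repeated to a like extent as its cluster, had values near those of the cluster. They were 1.32 for H3K9me3, 1.16 for H3K9me2 and 1.57 for H3K27me3, and the right flank had 0.942, 0.749 and 0.682. The raised values were thus not particular to the clusters. Per tile H3K9me3 was below the genome mean in 3 of the clusters. The genome value of 1.14 includes a tile with 6254 H3K9me3 reads. Reads at the edge of repeated words are counted to the words beside them here, and their part in these values was not tested.

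**Figure D3:**
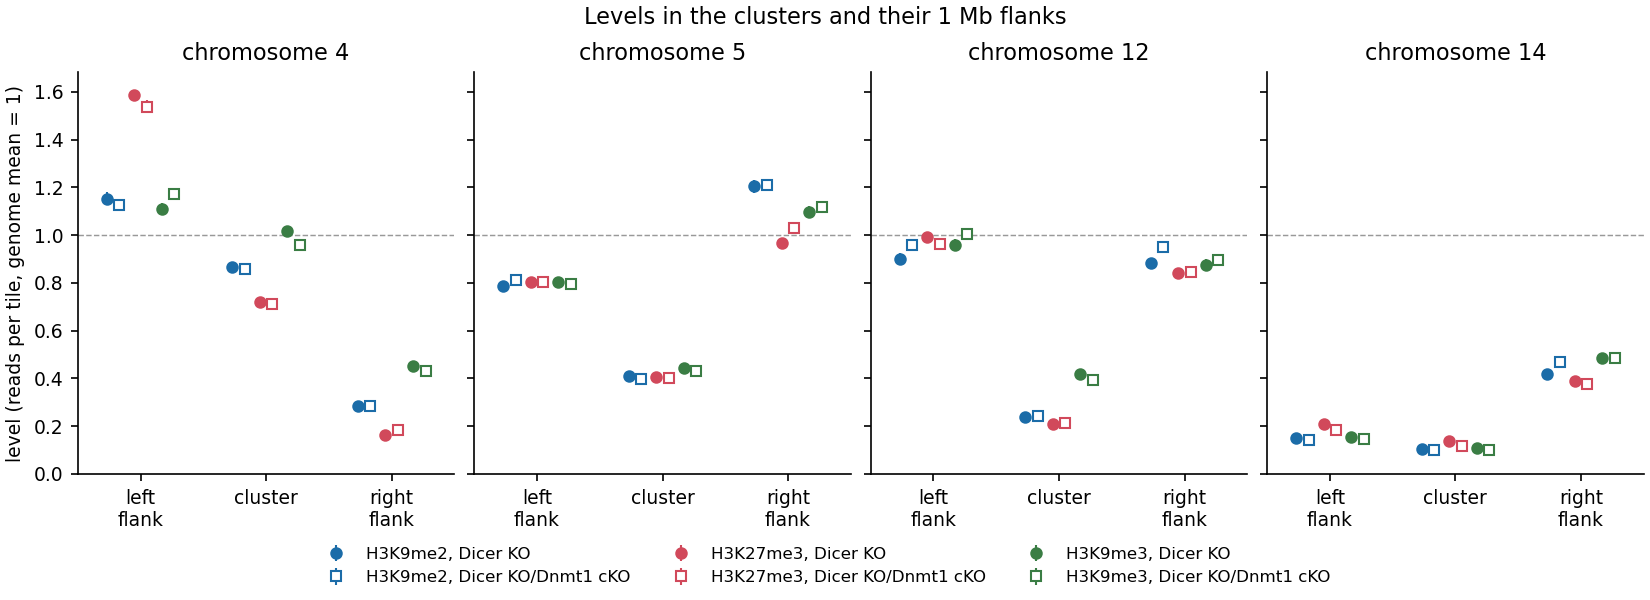
Levels of H3K9me2, H3K27me3 and H3K9me3 (reads per tile relative to the library's genome mean, dashed line at 1) in the 4 clusters and in the 1 Mb flanks on the left and right of each, with filled circles for Dicer KO and open squares for Dicer KO/Dnmt1 cKO, 1 library each, and bars for 95% counting intervals. Among the clusters that of chromosome 14 is lowest at 0.0996 to 0.136 and that of chromosome 4 highest at 0.713 to 1.02.

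The mixture of marks differed between the clusters, which is given as ratios of 2 marks, taken over the same tiles and so over the same placeable sequence. In the chromosome 12 cluster of Dicer KO the H3K9me3 level was 1.75 times the H3K9me2 level (1.71 to 1.79), and the ratio was 1.03 in its flanks. In Dicer KO/Dnmt1 cKO the ratio in this cluster was 1.62 (1.58 to 1.66). The lead of H3K9me3 was not particular to the cluster among tiles with 10 to 50% words found once. There the H3K9me3 and H3K9me2 levels in Dicer KO were 0.392 and 0.211 in the cluster and 0.539 and 0.287 in its flanks. Over the genome they were 2.54 and 0.703, from 8037 and 2058 reads in 231 tiles. The highest tiles of the genome set held 6254 H3K9me3 and 1046 H3K9me2 reads in Dicer KO. The genome levels may therefore rest largely on 1 tile, and they are not given as typical of such tiles. In the chromosome 14 cluster H3K27me3 led, at 1.33 times the H3K9me2 level (1.26 to 1.40) in Dicer KO and 1.18 (1.12 to 1.25) in Dicer KO/Dnmt1 cKO, and its left flank, repeated to a like extent, stood at 1.39. In the chromosome 4 cluster H3K9me3 was 1.41 times the H3K27me3 level (1.38 to 1.44), against 0.701 in its left flank and 2.79 in the zinc finger genes of its right flank. The chromosome 5 cluster was the most even, with the ratio of H3K27me3 to H3K9me2 at 0.985 (0.957 to 1.01) and that of H3K9me3 to H3K9me2 at 1.08 (1.04 to 1.11).

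H3K9me3 of the chromosome 12 cluster varied along its length. Its highest 100 kb window, from 20200001 to 20300000, had a level of 1.85 in Dicer KO (1268 reads) and 1.61 in Dicer KO/Dnmt1 cKO (1145 reads), a log2 change of −0.21 (−0.32 to −0.09). The windows from 20800001 to 20900000 (1.55 in Dicer KO) and from 18200001 to 18300000 (1.47) came next. Within the highest window the tile chr12:20238001-20240000, which overlaps no annotated gene, held 333 H3K9me3 reads in Dicer KO and 301 in Dicer KO/Dnmt1 cKO, or levels of 24.3 and 21.1. The same tile held 47 and 56 H3K9me2 reads and 84 and 82 H3K27me3 reads, so all 3 marks stood well above the genome mean there in both genotypes. Its left neighbour had 147 and 140 H3K9me3 reads. The tile is 96.7% words found once and 54.0% GC, and its middle is shown because it is the strongest H3K9me3 site of the 4 clusters. Capitals mark CpG sites, which are where Dnmt1 acts (NCBIM37, plus strand).
chr12:20238951-20239050: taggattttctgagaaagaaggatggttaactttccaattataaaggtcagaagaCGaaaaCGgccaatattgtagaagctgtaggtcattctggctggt
The stretch holds 2 CpG sites in 100 bases, against 4 and 6 in the H3K27me3-rich stretches of chromosome 14 printed above. The printed chromosome 5 stretch, from an H3K9me3-rich tile, holds 5 and its copy 4. The first 100 bases of the tile to the right (chr12:20240001-20240100, 86 H3K9me3 reads in Dicer KO) hold 8. These stretches thus did not sort by mark in their CpG sites.

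Other high windows were lower and differed between the marks. On chromosome 4 H3K9me2 was highest from 144000001 to 144100000 (1.35 in Dicer KO and 1.36 in Dicer KO/Dnmt1 cKO), H3K27me3 from 144200001 to 144300000 (1.50 and 1.29) and H3K9me3 from 144900001 to 145000000 (1.50 and 1.39). On chromosome 5 H3K27me3 was highest from 96300001 to 96400000 (1.53 and 1.36), and H3K9me2 from 96800001 to 96900000 (1.31 and 1.34). In the chromosome 14 cluster all 3 marks were highest in the window from 6000001 to 6100000, which holds Gm8237 and Gm3248, at 0.489, 0.791 and 0.500 in Dicer KO. That window is 39.6% words found once, against 7.90% in its cluster.

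Upon deletion of Dnmt1 the sums over clusters differed little. H3K9me2 differed by a log2 change of −0.02 (−0.05 to 0.02) on chromosome 4, −0.05 (−0.09 to −0.00) on chromosome 5, 0.02 (−0.01 to 0.06) on chromosome 12 and −0.04 (−0.13 to 0.04) on chromosome 14. H3K27me3 differed by −0.01 on chromosomes 4 and 5 and by 0.02 on chromosome 12, with intervals that include 0. H3K27me3 on chromosome 14 and H3K9me3 on chromosomes 4, 12 and 14 were lower in Dicer KO/Dnmt1 cKO by more than counting error, as was, by the narrowest margin, H3K9me2 on chromosome 5.

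H3K27me3 over the chromosome 14 cluster was 4321 reads in Dicer KO and 2920 in Dicer KO/Dnmt1 cKO, of 27162045 and 21280804 in all, a log2 change of −0.21 (−0.28 to −0.15). The left flank, likewise of repeated predicted genes, showed −0.18 (−0.27 to −0.08) and the right flank −0.06 (−0.13 to 0.01), so that the cluster less its flanks was −0.11 (−0.20 to −0.03). Of its 16 windows of 100 kb with at least 100 reads 15 were lower, with a median of −0.27 and a range from −0.62 to 0.13. Over the genome 45.4% of windows were lower and the median was 0.01. In 6 of the 16 windows the counting interval lay below 0 and in none above it, against 11.1% and 15.4% of windows over the genome. The lower H3K27me3 was therefore spread along the cluster. In tiles with 10 to 50% words found once it was as low in the flanks (−0.24, −0.32 to −0.15) as in the cluster (−0.23, −0.31 to −0.15).

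H3K9me3 was lower in the chromosome 4 cluster (17404 and 17121 reads, −0.08, −0.11 to −0.05), the chromosome 12 cluster (19961 and 19603 reads, −0.09, −0.11 to −0.06) and the chromosome 14 cluster (2341 and 2235 reads, −0.13, −0.21 to −0.04). On chromosome 5 it was −0.04 (−0.08 to 0.01). Summed over the clusters it was −0.08 (−0.10 to −0.06), and summed over the flanks 0.03 (0.01 to 0.05). Less the flanks the change was −0.12 (−0.17 to −0.07) on chromosome 4, −0.14 (−0.18 to −0.09) on chromosome 12, −0.10 (−0.21 to 0.00) on chromosome 14 and −0.04 (−0.10 to 0.01) on chromosome 5, so that on chromosome 14 the interval then reached 0. These differences are small and were measured once.

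Windows showed the same side for H3K9me3. It was lower in 40 of 56 windows of the chromosome 12 cluster, 19 of 24 on chromosome 4, 12 of 15 on chromosome 14 and 16 of 24 on chromosome 5, and over the genome in 51.2%. The interval lay below 0 in 8, 5, 2 and 2 of these windows and above 0 in 1, on chromosome 5, against 8.16% and 7.80% over the genome. For H3K9me2 the windows were 23 lower of 52 on chromosome 12, 16 of 24 on chromosomes 4 and 5, and 11 of 16 on chromosome 14, over a background of 50.3%. The interval lay below 0 in 3, 1, 3 and 0 windows of chromosomes 12, 4, 5 and 14 and above 0 in 5, 2, 0 and 0, against 8.01% and 13.5% over the genome.

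**Figure D4:**
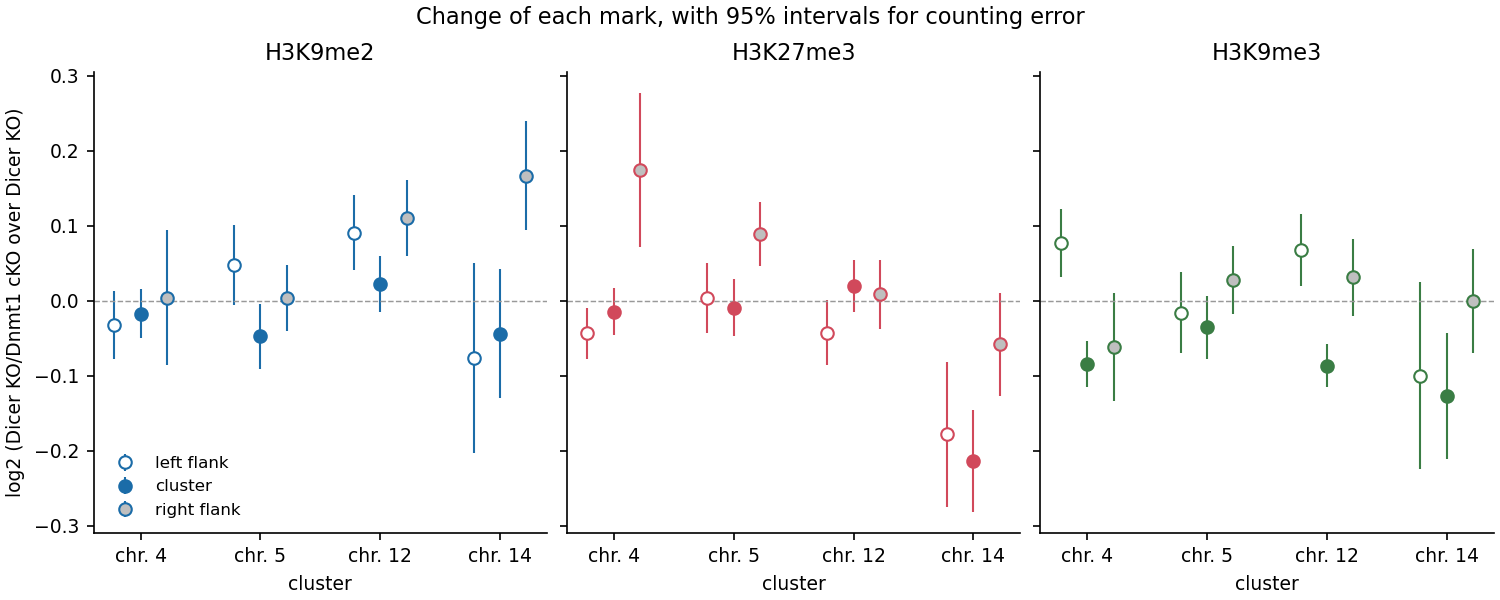
Log2 change of each mark (Dicer KO/Dnmt1 cKO over Dicer KO, scaled by total reads, 1 panel for each mark) in the 4 clusters (filled points) and their left (open points) and right flanks (grey points), with bars for 95% counting intervals and 1 library for each mark and genotype. H3K27me3 of the chromosome 14 cluster is lowest at −0.21, and H3K9me3 lies below 0 in all 4 clusters.

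Within the clusters the lower H3K9me3 lay mostly in partly repeated sequence. Over the 4 clusters, tiles with 10 to 50% words found once held 15625 reads in Dicer KO and 14792 in Dicer KO/Dnmt1 cKO (−0.14, −0.17 to −0.11). Tiles with 50 to 90% showed −0.08 (−0.11 to −0.05) and tiles with at least 90% showed −0.01 (−0.05 to 0.02). The same 3 kinds of tile over the genome showed −0.02, −0.04 and −0.00. The first of these rests on 8037 and 8270 reads, and the highest tile of the genome set held 6254 and 6536. If that tile lies in this class, the −0.02 is largely its own change, and a value without it was not computed. On chromosome 4 the tiles with 10 to 50% showed −0.20 (−0.28 to −0.12), on chromosome 5 −0.10 (−0.19 to −0.01), on chromosome 12 −0.12 (−0.16 to −0.08) and on chromosome 14 −0.19 (−0.29 to −0.09). Each cluster was thus lower in this class. The flanks together showed −0.05 (−0.12 to 0.03) in it. Tiles with less than 10% showed −0.09 (−0.18 to 0.00) in the clusters, −0.19 (−0.36 to −0.03) in the flanks and 0.11 (−0.20 to 0.43) over the genome. In that most repeated class, lower H3K9me3 was not particular to the clusters.

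In the 204 tiles of the chromosome 12 cluster with at least 90% words found once, H3K9me2 and H3K27me3 were higher in Dicer KO/Dnmt1 cKO. H3K9me2 was 2115 and 2849 reads (0.15, 0.06 to 0.23), beside 0.12 (0.08 to 0.16) in the same kind of tile of its flanks. H3K27me3 was 2122 and 1853 reads (0.16, 0.07 to 0.25), beside −0.02 (−0.05 to 0.02) in the flanks. For the chromosome 14 cluster this class holds 1 tile only, so its change there rests on tiles with 10 to 50% words found once, where H3K27me3 showed −0.23 (−0.31 to −0.15). The same kind of tile in its flanks was alike, at −0.24 (−0.32 to −0.15).

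Gene starts were compared with the other tiles of each cluster because H3K27me3 gathers at them. In the chromosome 14 cluster 58 tiles hold the start of a protein-coding gene, and 30 of them were without reads. The start tiles held 190 H3K27me3 reads in Dicer KO and 97 in Dicer KO/Dnmt1 cKO, a log2 change of −0.62 (−0.99 to −0.26), whereas the other tiles showed −0.20 (−0.27 to −0.13). Among tiles with 10 to 50% words found once the contrast was weaker, at −0.49 (−0.94 to −0.05) and −0.22 (−0.30 to −0.14). In the chromosome 5 cluster the 34 start tiles held 331 and 180 reads (−0.53, −0.80 to −0.26), and the other tiles showed 0.00 (−0.04 to 0.04). The start of Fras1, which encodes an extracellular matrix protein and runs out of the cluster, was the largest part of the chromosome 5 value. Its tile held 111 and 41 reads. Without it the change was −0.31 (−0.63 to 0.00) and the level of the start tiles in Dicer KO 0.326. Start tiles of the chromosome 4 and chromosome 12 clusters showed 0.01 (−0.14 to 0.16) and 0.05 (−0.61 to 0.69). The 75 start tiles among every 250th tile of the genome showed −0.03, with 3151 and 2419 reads and no tile left out. The highest tile of the genome set held 736 H3K27me3 reads in Dicer KO and 893 in Dicer KO/Dnmt1 cKO. If it is a start tile, the genome value depends strongly on it, and a value without it was not computed.

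The chromosome 14 stretch printed above with its copy recurs at such starts. It has 22 copies in the cluster that align over its full length, and 10 of them have their middle within 200 bases of the start of an annotated gene, such as Gm3248, Gm3383 or Gm10021. The tile of the first copy, inside Gm8237, held 60 H3K27me3 reads in Dicer KO and 41 in Dicer KO/Dnmt1 cKO, and the tile of the second, at the start of Gm3248, held 33 and 13. The first was chosen for its reads in Dicer KO, so its own change is a description.

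Of the 22 copies, 10 lie in tiles with at least 10% words found once, and these carried H3K27me3. Their tiles held 14 to 60 H3K27me3 reads in Dicer KO (median 21.5) and 5 to 41 in Dicer KO/Dnmt1 cKO (median 13), lower in 10 of 10. Over the genome 50.2% of tiles with a mean of at least 10 H3K27me3 reads were lower. Summed, they held 293 and 154 reads, a level of 1.43 and 0.961 and a log2 change of −0.58 (−0.87 to −0.29). Without the tile that chose the stretch the sums were 233 and 113 (−0.69, −1.03 to −0.36), lower in 9 of 9. The tiles of the cluster that hold no copy showed −0.19 (−0.26 to −0.12), and the set of copies was chosen after its values were seen. A difference of this size was not particular to the stretch, since H3K27me3-rich genes elsewhere showed it as well, such as Sox17 with 535 and 282 reads (−0.57, −0.79 to −0.36) and Hoxd9 with 197 and 100 reads (−0.63, −0.99 to −0.27), and the 8 developmental genes summed showed −0.33 (−0.40 to −0.27).

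The other marks did not follow H3K27me3 at these 10 tiles. H3K9me2 was 12 reads in Dicer KO and 35 in Dicer KO/Dnmt1 cKO (1.26, 0.28 to 2.34), at levels of 0.0946 and 0.227. H3K9me3 was 36 and 40 reads (0.09, −0.59 to 0.78). The other 12 copies lie in tiles with less than 10% words found once and held 0 to 3 H3K27me3 reads each in either genotype, and 9 of the 10 copies at gene starts are among them. The tiles of these 9 have at most 3.6% of words found once, so few reads can be placed in them. H3K27me3 at the starts of these genes was hence not measurable from the reads counted here, except at Gm3248.

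**Figure D5:**
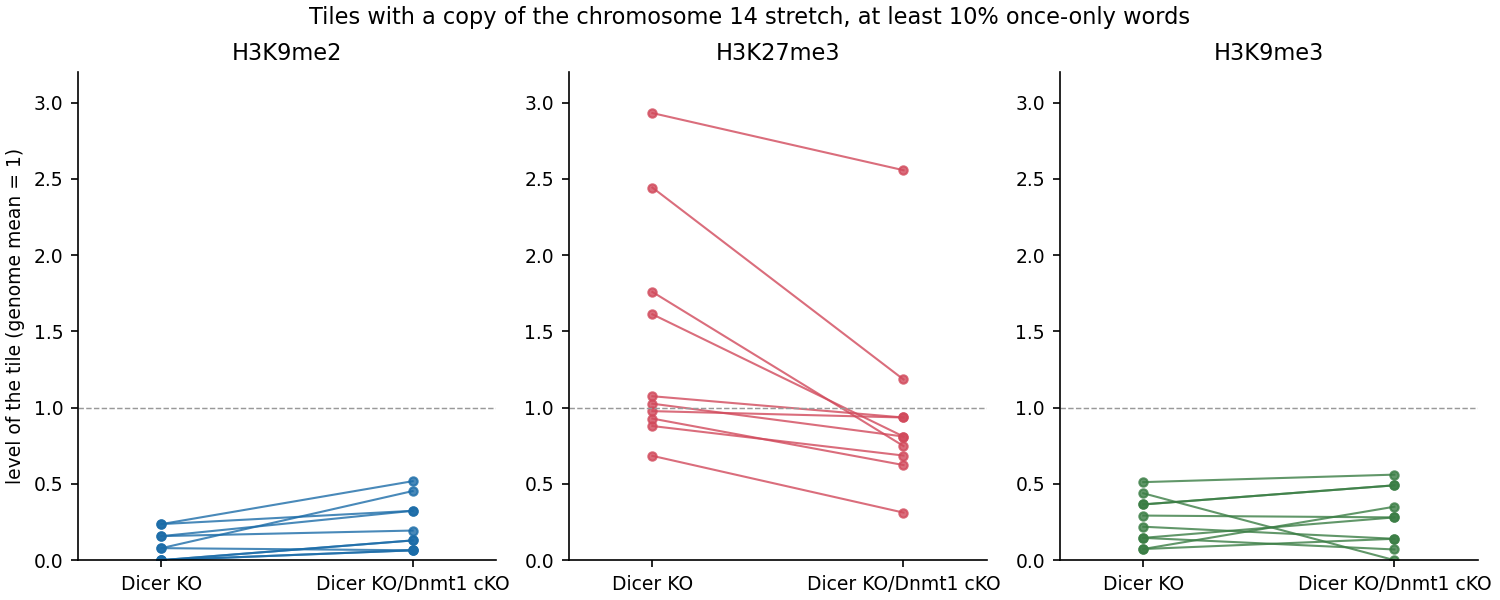
Level of each mark (reads of the tile relative to the library's genome mean, dashed line at 1, 1 panel for each mark) in the 10 tiles that hold a copy of the chromosome 14 stretch and at least 10% words found once, where each line joins the value of a tile in Dicer KO to that in Dicer KO/Dnmt1 cKO, 1 library each. All 10 H3K27me3 lines slope down, and the tiles of H3K9me2 and H3K9me3 stay below 1 in both genotypes.

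In the chromosome 5 cluster the printed stretch has 8 copies. The tile of the first held 62 H3K9me3 reads in Dicer KO and 57 in Dicer KO/Dnmt1 cKO, and the tile of its closest copy, 2 differing bases away, held 8 and 10. The other 7 copies together held 48 and 49 (−0.03, −0.63 to 0.57), between 1 and 14 each. The first tile was chosen for its H3K9me3 reads in Dicer KO, so its place above the other copies there is a description. It had 32.2% of its words found once, against 10.5% to 24.6% in the others.

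The annotation places 45 protein-coding genes wholly inside the chromosome 4 cluster, 35 in that of chromosome 5, 21 in that of chromosome 12 and 61 in that of chromosome 14, with 44, 0, 21 and 28 pseudogenes. The PRAME family makes up 27 genes on chromosome 4 and 31 on chromosome 5. On chromosome 14 all 61 are predicted genes, each at least 94.9% identical in protein to another of the cluster, with a median of 99.1%. In this cluster 22 genes held no read in any library, as did 2 on chromosome 5, 1 on chromosome 12 and none on chromosome 4. Reads that fit several genes of a family equally well are removed by the mapping quality cutoff. The values of single genes thus rest on the part of their sequence that can be told apart, and they are uncertain.

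The PRAME genes differed in how far they could be read. On chromosome 4 a median of 69.5% of their words was found once and their median H3K9me2 level was 0.994 in Dicer KO and 0.982 in Dicer KO/Dnmt1 cKO, that of H3K9me3 0.936 and 0.929, and that of H3K27me3 0.749 and 0.780. On chromosome 5 the median share was 5.13%, and the levels were 0.0789 and 0.0863 (H3K9me2), 0.146 and 0.117 (H3K9me3) and 0.0977 and 0.0936 (H3K27me3). The 4 zinc finger genes of the chromosome 4 cluster had more H3K9me3 (median 1.09 in Dicer KO and 0.985 in Dicer KO/Dnmt1 cKO) than H3K9me2 (0.623 and 0.616) or H3K27me3 (0.230 and 0.227).

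With at least 100 reads of a mark over both libraries, no gene of the 4 clusters differed 2-fold. That held for 51 genes compared for H3K9me2 and 54 for each of H3K27me3 and H3K9me3, and over the genome 0.0993%, 0.286% and 0.0485% of genes differed by that much. By side, H3K27me3 was lower in 10 of 11 genes of the chromosome 14 cluster (median −0.13), with the interval below 0 in 2, and over the genome it was lower in 40.1% of genes with the interval below 0 in 11.7%. H3K9me3 was lower in 8 of 8 genes there (median −0.13) with the interval below 0 in 1, over a background of 41.5% and 3.57%. H3K9me2 was lower in 6 of 8, over 29.6%, with the interval below 0 in 1, over 3.47%. The interval lay above 0 in none of the genes of this cluster for any mark, against 19.5% of genes over the genome for H3K9me2, 20.3% for H3K27me3 and 8.01% for H3K9me3. It lay above 0 for H3K9me2 in 3 of 6 genes of the chromosome 12 cluster and 3 of 30 on chromosome 4. Many of these genes overlap or share tiles, so they are not separate measurements.

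In the chromosome 4 cluster Aadacl3, an arylacetamide deacetylase-like gene (chr4:144043674-144053659), led for H3K9me2 with 145 reads in Dicer KO and 144 in Dicer KO/Dnmt1 cKO (levels 1.91 and 1.55, −0.29, −0.64 to 0.05). The predicted gene Gm13177 (chr4:144203610-144213301) followed at 1.87 and 1.64, and led for H3K27me3 at 2.07 and 1.82, ahead of Gm13124 at 1.87 and 1.77. The PRAME genes Gm13089 (1.65 and 1.51) and Oog3 (1.55 and 1.42) led for H3K9me3 in this cluster. None of these genes differed between the genotypes by more than counting error.

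Among the largest differences of the chromosome 4 cluster, Pramef8 (chr4:143002329-143010994) had 63 H3K9me2 reads in Dicer KO and 127 in Dicer KO/Dnmt1 cKO (0.73, 0.28 to 1.19). Gm13103 had 57 and 44 (−0.66, −1.26 to −0.06). For H3K27me3 the extremes were Gm13084 at 80 and 80 reads (0.35, −0.11 to 0.82) and Pramel5 at 148 and 87 (−0.41, −0.81 to −0.02). For H3K9me3 they were Gm13109 at 45 and 63 reads (0.43, −0.15 to 1.01) and C87977 at 69 and 47 (−0.61, −1.18 to −0.06). All 6 are PRAME genes, and they were picked as extremes of 30 or 31 genes, so their intervals are too narrow for that choice.

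In the chromosome 5 cluster Cxcl13, a B cell chemokine (chr5:96385945-96390086), had the highest level of H3K9me2 (1.54 and 1.23) and H3K27me3 (1.91 and 1.59), and the PRAME-type gene C87414 (chr5:94064019-94100577) that of H3K9me3 (1.31 and 1.18). Mrpl1, which encodes a protein of the mitochondrial ribosome (chr5:96638512-96695746), had 205 H3K27me3 reads in Dicer KO and 227 in Dicer KO/Dnmt1 cKO (0.50, 0.22 to 0.78) and 254 and 314 H3K9me3 reads (0.25, 0.00 to 0.49). The PRAME-type gene E330014E10Rik (chr5:96204889-96233254), of which 11.6% of words are found once, had the lowest change for 2 marks, with 67 and 52 H3K9me2 reads (−0.65, −1.20 to −0.11) and 87 and 45 H3K27me3 reads (−0.60, −1.15 to −0.06). The other extremes, Gm7792 for H3K9me2 (0.17, −0.07 to 0.41) and D5Ertd577e for H3K9me3 (−0.25, −0.82 to 0.32), did not differ by more than counting error.

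The chromosome 12 cluster contains a stretch of ordinary genes from Asap2 to Ywhaq. Asap2, which encodes a GTPase-activating protein of the Arf family (chr12:20996320-21276032), had 1138 H3K9me2 reads in Dicer KO and 1524 in Dicer KO/Dnmt1 cKO (0.14, 0.03 to 0.25) and 935 and 863 H3K27me3 reads (0.24, 0.10 to 0.37). Its neighbours were Itgb1bp1, an integrin-binding protein (H3K9me2 0.26, −0.02 to 0.53, and H3K9me3 −0.26, −0.53 to 0.01), Cpsf3, the endonuclease of mRNA 3′ end processing (H3K27me3 0.03, −0.40 to 0.46), and Ywhaq, a 14-3-3 protein (chr12:21395932-21423498, H3K27me3 60 and 76 reads, 0.69, 0.19 to 1.21). Of the 5 such genes with enough reads 0 were lower for H3K9me2 and 0 for H3K27me3 (medians 0.14 and 0.24), against 29.6% and 40.1% of genes over the genome. The genes of this kind in the flanks were alike for H3K9me2, with 0 of 4 lower on the left and 0 of 5 on the right. For H3K27me3 2 of 5 were lower on each side. In the cluster the H3K27me3 levels of such genes were low in both genotypes, with a highest of 0.415.

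Zfp125, a zinc finger gene (chr12:20905683-20906728), had the highest H3K9me3 of the genes compared, at 75 reads in Dicer KO and 49 in Dicer KO/Dnmt1 cKO (levels 2.74 and 1.72, −0.67, −1.22 to −0.14). No other gene of this cluster had a lower change for H3K9me3. The predicted gene 9030624G23Rik had 41 and 80 H3K9me2 reads (0.68, 0.12 to 1.26), at levels of 0.120 and 0.192. Ywhaq had the highest change for H3K9me3, at 101 and 135 reads (0.36, −0.02 to 0.74).

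In the chromosome 14 cluster the genes with the highest levels were those with most words found once. Gm6356 (chr14:7797963-7806332, 48.3% found once) had an H3K9me2 level of 0.920 in Dicer KO and 0.745 in Dicer KO/Dnmt1 cKO, and Gm3248 (chr14:6071248-6093768, 46.3%) an H3K27me3 level of 0.851 and 0.785. Gm8237 (chr14:5989941-6077935), which overlaps Gm3248, led for H3K9me3 at 0.541 and 0.531. Gm3298 (chr14:4963445-5124507) had 252 H3K27me3 reads in Dicer KO and 141 in Dicer KO/Dnmt1 cKO (−0.49, −0.79 to −0.18), and Gm3636 (chr14:7568199-7707669) had 240 and 200 H3K9me3 reads (−0.32, −0.60 to −0.05). Gm3618 was the 1 gene with higher H3K27me3, at 54 and 49 reads (0.21, −0.38 to 0.80).

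Single tiles were compared where the 2 libraries of a mark held a mean of at least 10 reads, and a tile was called at a difference of 2-fold or more. For H3K27me3, 14 of 93 tiles of the chromosome 14 cluster passed (15.1%, 9.18 to 23.7), 11 lower and 3 higher, against 5.99% of tiles over the genome, 2.90% lower and 3.09% higher. The other clusters stood at 56 of 717 tiles on chromosome 4 (7.81%), 27 of 381 on chromosome 5 (7.09%) and 35 of 370 on chromosome 12 (9.46%). Tiles in repeated sequence hold fewer reads, and fewer reads give more tiles past 2-fold by counting error alone, so shares above the background are not by themselves a difference of the clusters.

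For H3K9me3 the tiles past 2-fold were 71 of 863 on chromosome 4 (8.23%), 15 of 395 on chromosome 5 (3.80%), 56 of 644 on chromosome 12 (8.70%) and 2 of 29 on chromosome 14 (6.90%), against 7.48%. On chromosome 12 they were 35 lower and 21 higher, and over the genome 3.42% lower and 4.07% higher. The H3K9me2 tiles past 2-fold were 55 of 755 (7.28%), 21 of 376 (5.59%), 33 of 312 (10.6%) and 4 of 24 (16.7%) in the same order, against 7.03%. On chromosome 4 they were 31 higher and 24 lower, on chromosome 5 11 and 10, on chromosome 12 20 and 13 and on chromosome 14 3 and 1, against 4.06% higher and 2.97% lower over the genome. Only 1.55% of the tiles of the chromosome 14 cluster held enough H3K9me2 reads to be compared, 6.00% enough H3K27me3 reads and 1.87% enough H3K9me3 reads.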

How the data were processed

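The deposited values are log2 ratios of observed to expected reads in 2 kb tiles, which the authors made with SeqMonk after trimming with Trim Galore, mapping with Bowtie2 to NCBIM37 and discarding reads with a mapping quality under 20. Bowtie and NCBIM37 are also given in the submitters' processing notes. The methods speak of 1 kb tiles, and the read length is not given in the sources used here. Whole reads were recovered from the steps of the log2 values. Tiles without reads stand at 0.9 of a read, and at most 1 value per library lay over 0.1 reads from a whole number. Of 25 value columns 6 were used, and the 19 others, which match none of the samples analysed here, were not.

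Levels are reads per tile over the library mean, and changes are log2 ratios of Dicer KO/Dnmt1 cKO to Dicer KO after division by total reads. Ratios of counts have exact binomial and shares Wilson 95% intervals. Once-only words were counted over all 50-base words of the reference on both strands. Tiles with over 50% N count as gap, and every 250th tile stands for the genome where sequence was needed. A tile was compared at a mean of at least 10 reads, a gene or 100 kb window at 100 reads over both libraries. The tile sums, word counts and intervals were tested on simulated data. Genes named are, per cluster and mark, the 2 highest in Dicer KO and the 1 with the highest and the 1 with the lowest change, beside genes at printed sequences, Fras1 and those counted by family, which were chosen after their values were seen. The clusters, gene lists and alternatives were chosen with earlier results of these data known. Levels per once-only word were added after seeing the data, and other alternatives were flank width, gap tiles, tile length, scaling and read minima. Python 3.11.15, numpy 2.4.6, pandas 2.3.3, SciPy 1.17.1, matplotlib 3.10.9, pysam 0.24.0, BLAST 2.17.0 and samtools 1.23.1 were used.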

Additional observations from a re-analysis of the deposited data

How the results depend on the processing

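The differences between the genotypes kept their direction and size, within counting error, for all 12 pairs of mark and cluster under TMM-type scaling, median scaling and without the 1% of tiles with most reads, except that H3K27me3 of chromosome 5 was 0.0044 in the last. Less the change of the flanks they were −0.078 for H3K9me2 (−0.13 to −0.03, where it had been 0.02) and −0.14 for H3K9me3 on chromosome 12, −0.15 for H3K9me2 and −0.11 for H3K27me3 on chromosome 14, −0.060 for H3K27me3 on chromosome 5 and −0.12 for H3K9me3 on chromosome 4, and in the other 6 pairs they moved by less than counting error, H3K9me2 and H3K27me3 of chromosome 4 to the other side of 0. In tiles with at least 90% once-only words they were 0.019, −0.055 and −0.042 on chromosome 4 for H3K9me2, H3K27me3 and H3K9me3, 0.038 for H3K9me3 on chromosome 5, 0.15, 0.16 and −0.033 on chromosome 12, and 0.23, 0.019 and 1.16 in the 1 such tile of chromosome 14. All 3 marks of chromosome 14, H3K9me2 of chromosome 4 and both H3K27me3 (0.017) and H3K9me3 of chromosome 5 turned direction there, with intervals that include 0. No paired analysis was possible because the labels give no replicate numbers and a mark has 1 library in a genotype.

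Levels against the flanks in Dicer KO depended strongly on the tiles compared (log2 ratios for H3K9me2, H3K27me3 and H3K9me3 in that order). With 500 kb flanks they were 0.33, −0.0081 and 0.42 on chromosome 4, −1.70, −2.00 and −1.06 on chromosome 12, −0.37, −0.55 and −0.39 on chromosome 14, and −0.99 for H3K9me3 on chromosome 5. Without the 1% of tiles with most reads they were 0.44 for H3K9me3 on chromosome 4, −1.32, −1.16 and −1.15 on chromosome 5, −1.98, −2.19 and −1.27 on chromosome 12, and −1.22 for H3K27me3 on chromosome 14. In tiles with a read in any library they were −0.13, −0.68 and −0.021 on chromosome 4, where H3K9me2 and H3K9me3 turned direction, −0.99, −0.84 and −0.82 on chromosome 5, −1.59, −1.82 and −0.83 on chromosome 12, and −0.54, −0.21 and −0.61 on chromosome 14. In tiles with at least 90% once-only words they were −0.050, −0.78 and −0.11 on chromosome 4, 0.19, 0.26 and 0.067 on chromosome 5, −0.30, −1.02 and 0.18 on chromosome 12, and 0.54, 1.54 and −0.37 on chromosome 14, and 8 of the 12 turned direction. Per once-only word, which was chosen after seeing the data, they were −0.10, −0.65 and 0.012 on chromosome 4, 0.30, 0.44 and 0.47 on chromosome 5, −0.29, −0.51 and 0.47 on chromosome 12, and 0.57, 0.90 and 0.50 on chromosome 14, and again 8 turned direction. The cause was not tested.

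The share without reads was highest on chromosome 14 and lowest on chromosome 4 in each of these settings, whereas chromosomes 5 and 12 changed places without gap tiles. In 10 kb tiles they were 1.2%, 4.67%, 15.1% and 40.6% in the clusters of chromosomes 4, 5, 12 and 14 and 22%, 0%, 0% and 0.5% in their flanks. Without gap tiles they were 17.8% on chromosome 5, 15.8% on chromosome 12, 47.4% on chromosome 14 and 18.3% in the chromosome 4 flanks. With 500 kb flanks they were 2.6% in those of chromosome 5 and 11.8% in those of chromosome 14.

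The share of tiles past 2-fold was lower over the genome where more depth was required, and in most but not all of the clusters. With a mean of at least 20 reads it was 3.70%, 0.901% and 2.94% for H3K9me2 on chromosomes 4, 5 and 12 (3.14% over the genome), 4.88%, 2.86% and 1.61% for H3K27me3 there (2.71%), 20% for H3K27me3 on chromosome 14 (7.05% to 45.2%), and 4.86%, 2.89% and 0% for H3K9me3 on chromosomes 4, 12 and 14 (2.94%). No chromosome 14 tile reached that depth for H3K9me2. With no minimum and a pseudocount of 1 read it was 18.5% and 23.1% for H3K9me2 on chromosomes 5 and 12 (9.16%), 14.5%, 16.4% and 21.3% for H3K27me3 on chromosomes 4, 5 and 12 (9.40%), and 15.7%, 19.4% and 13.9% for H3K9me3 on chromosomes 5, 12 and 14 (8.65%). In 10 kb tiles it was 0.873%, 4.92% and 3.49% for H3K9me2 on chromosomes 4, 12 and 14 (0.603%), 1.73%, 5.41% and 8.62% for H3K27me3 (1.04%), and 0%, 3.10% and 9.78% for H3K9me3 on chromosomes 4, 12 and 14 (0.291%), and on chromosome 5 it was 3.82%, 6.28% and 4.74% for the 3 marks in that order.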
